A study of Mus musculus with 4 samples.

Results

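Fibroblasts of mouse skin that carried transcripts of Cdh4 or Ntng1 were described across 4 single-cell RNA libraries, of which untreated skin held most. A cell barcode was taken as a member when it met a fixed set of limits on raw counts of unique molecular identifiers (UMIs, each standing for 1 captured RNA molecule). At least 300 detected genes were required, with no more than 15% of UMIs from mitochondrial genes. It had no UMI of Ptprc, the pan-leukocyte gene, at least 1 UMI of Pdgfra, a growth factor receptor of fibroblasts, and at least 20 UMIs of the collagen genes Col1a1, Col1a2 and Col3a1 together. Barcodes with 10 or more UMIs of Angptl7, 5 or more of Cxcl5 and Saa3, or 3 or more of Cxcl13 and Inmt were left out, since these genes mark other fibroblast groups. Members then had at least 3 UMIs of Cdh4 and Ntng1 together. These limits took 869 of 28847 barcodes. The 2821 barcodes that met every limit but the last are called gated fibroblasts, so 1952 other gated fibroblasts were left for comparison. Members were thus chosen by their measured UMIs of these genes, and Cdh4, Ntng1 and genes that move with them in the same cells are therefore described without a test.

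All mice were female C57BL/6J, aged 6 to 8 weeks, and each library pooled digested neck and ear skin of 3 mice, so neither the mouse nor the skin site of a cell is known. In the Oxazolone d10 and Oxazolone d16 groups the skin was sensitised with 100 µl of 3% oxazolone, a contact hapten, and challenged with 1.0% oxazolone every other day beginning 7 days later, with harvest at day 10 and day 16. The MC903 d9 group received 1 nmol of MC903 (calcipotriol, a vitamin D analogue that brings on dermatitis resembling atopic disease) in 100 µl every day for 9 days. The untreated group was the comparison group, and a vehicle-treated library was not analysed here. A group was a single library, so replicate error is unknown and nothing was tested. Intervals below are exact 95% intervals that cover counting error only.

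Dermal fibroblasts build the collagen matrix of the skin and differ by depth and site. Papillary fibroblasts lie under the epidermis, reticular fibroblasts form the deep dermis, fascial and adventitial fibroblasts express Pi16 and Cd34, and the dermal papilla is a specialised fibroblast cluster at the base of the hair follicle that signals to the follicle epithelium. Cdh4 encodes R-cadherin, a calcium-dependent adhesion protein known from retina and muscle. Ntng1 encodes netrin-G1, a membrane-anchored relative of the netrins that binds Lrrc4c on neurons. Zfp536, given as a further marker of these cells and not used by the limits, encodes a zinc-finger repressor known from neural differentiation.

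The 250 bases upstream of 1 annotated start per gene are given for 4 genes that the results turn on. These are Ntng1, a gene of the limits, Zfp536, the further marker, and Grem1, the gene with the highest ratio in members of untreated skin. The last is Ahrr, a repressor of the dioxin receptor among the leading genes. The stretches come from RefSeq on GRCm38.p6 and read 5′ to 3′ on the minus strand. They lie at chr3:110143473-110143722 for Ntng1, chr7:37769753-37770002 for Zfp536, chr2:113758649-113758898 for Grem1 and chr13:74292332-74292581 for Ahrr. Those of Ntng1 and Zfp536 lie inside the annotated spans of these genes, which end at 110149972 and 37774039. On the minus strand their starts are thus not the outermost ends of the genes. Capitals mark matches, on either strand, to the TATA box (searched as TATAAA), to the CCAAT box (searched under that name), to the GC box (searched as GGGCGG) and to the core of the dioxin response element (searched as GCGTG).
Ntng1: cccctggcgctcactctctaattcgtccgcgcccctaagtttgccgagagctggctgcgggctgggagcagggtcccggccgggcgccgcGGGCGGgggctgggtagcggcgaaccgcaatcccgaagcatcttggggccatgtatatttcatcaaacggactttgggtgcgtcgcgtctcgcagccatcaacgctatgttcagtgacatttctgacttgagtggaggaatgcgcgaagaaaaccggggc
Zfp536: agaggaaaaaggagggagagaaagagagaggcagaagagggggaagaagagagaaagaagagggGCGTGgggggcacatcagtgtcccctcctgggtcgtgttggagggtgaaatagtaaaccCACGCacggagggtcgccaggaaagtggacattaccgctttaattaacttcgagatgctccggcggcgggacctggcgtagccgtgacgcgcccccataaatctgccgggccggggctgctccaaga
Grem1: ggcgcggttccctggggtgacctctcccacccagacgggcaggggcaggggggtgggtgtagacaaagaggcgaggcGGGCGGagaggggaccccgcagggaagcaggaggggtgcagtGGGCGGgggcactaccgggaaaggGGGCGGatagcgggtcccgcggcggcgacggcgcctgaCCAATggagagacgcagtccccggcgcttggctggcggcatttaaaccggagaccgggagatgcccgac
Ahrr: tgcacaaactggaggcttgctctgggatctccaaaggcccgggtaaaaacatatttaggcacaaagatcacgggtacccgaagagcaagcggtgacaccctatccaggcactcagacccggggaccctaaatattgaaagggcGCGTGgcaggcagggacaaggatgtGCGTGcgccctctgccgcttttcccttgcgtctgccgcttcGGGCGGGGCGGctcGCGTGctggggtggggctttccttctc
The Ntng1 stretch held 1 GC box match and the Zfp536 stretch 2 GCGTG matches. Grem1 held 1 CCAAT box and 3 GC box matches, and Ahrr held 3 GCGTG matches and 2 GC box matches that overlap each other. Of the 25 leading genes named below, 21 had an upstream stretch in the table, and 8 of these (38.1%) held GCGTG, against 28.2% of 27025 genes. GC boxes were in 10 of the 21 (47.6%), against 32.9% of all genes, TATAAA in 6 (28.6%), against 13.0%, and CCAAT in 5 (23.8%), against 34.5%. Median GC content was 57.2% for the 21 genes and 52% for all. These matches describe letters in a short window and were not tested. Cdh4 spans 456955 bases on chromosome 2 (179442423 to 179899377) and Ntng1 spans 369923 bases on chromosome 3 (109780050 to 110149972).

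The libraries held 8708, 8199, 4185 and 7755 barcodes and 119717836, 108142462, 73054242 and 92861164 UMIs for Oxazolone d10, Oxazolone d16, MC903 d9 and untreated skin. In that order members had a median of 17428, 20841, 29751 and 15139.5 UMIs, and other gated fibroblasts 19692, 29595.5, 25868 and 12125 UMIs. A doublet score marked 13, 3, 1 and 62 members. Across the series 67 barcode sequences occurred in more than 1 library, and 4 of the untreated members carried such a sequence. The fibroblast genes Col1a1, Dcn and Lum were read in members and other gated fibroblasts. Col1a1 is a gene of the limits, so only Dcn and Lum are apart from the gate. Untreated members had 11383, 15313 and 2326 CPM (the sum of a gene over a group of cells, scaled so that all groups have an equal total), and untreated other gated fibroblasts had 4903, 9135 and 1289 CPM. Untreated members thus carried ample transcripts of Dcn and Lum, which the limits did not use. The 27 members of Oxazolone d16 stood apart, with 452 CPM of Col1a1, 45.0 CPM of Dcn (decorin) and no UMI of Lum (lumican). A list of 10 fibroblast markers summed to 3951, 1613, 18581 and 26539 CPM in members, against 10129, 11180, 17806 and 21058 CPM in other gated fibroblasts. Col1a1 was not among these 10 markers. Neutrophil markers summed to 147, 2789, 25.4 and 0.918 CPM in members, against 124, 509, 66.2 and 0.773 CPM in other gated fibroblasts, and their part in the results was not tested. In Oxazolone d16 members 891 of the 987 UMIs of S100a9, a neutrophil gene, came from 1 cell.

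Members made up the smallest share of gated fibroblasts in the MC903 library and the largest in untreated skin. They were 75 of 460 in Oxazolone d10 (16.3%, interval 13.0 to 20%), 27 of 177 in Oxazolone d16 (15.3%, 10.3 to 21.4%), 45 of 428 in MC903 d9 (10.5%, 7.77 to 13.8%) and 722 of 1756 in untreated skin (41.1%, 38.8 to 43.5%). The untreated interval lies above those of the 3 treated libraries, which overlap one another. Of all barcodes passing the filters, members were 0.904%, 0.341%, 1.17% and 9.37% in the same order. With every cell thinned to 10000 UMIs, 11.1%, 9.03%, 4.69% and 39.4% of gated fibroblasts still had 3 UMIs of the pair. A smaller share of cells and fewer transcripts per cell cannot be told apart where cells are counted by a UMI limit. The exclusions left 460 of 649, 177 of 345, 428 of 957 and 1756 of 1891 fibroblasts in the gate, and without any of them the shares were 12.2%, 8.41%, 9.93% and 39.7%.

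The makeup of the members differed as well. Cells with UMIs of both genes were 7 of 75 in Oxazolone d10 (9.33%), 4 of 27 in Oxazolone d16 (14.8%), 6 of 45 in MC903 d9 (13.3%) and 451 of 722 in untreated skin (62.5%). Ntng1 without Cdh4 was carried by 80% of members in Oxazolone d10, 85.2% in Oxazolone d16, 66.7% in MC903 d9 and 13.9% in untreated skin. Members in treated skin were therefore mostly cells with Ntng1 alone. Cdh4 without Ntng1 was found in 8, 0, 9 and 171 members.

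**Figure D1:**
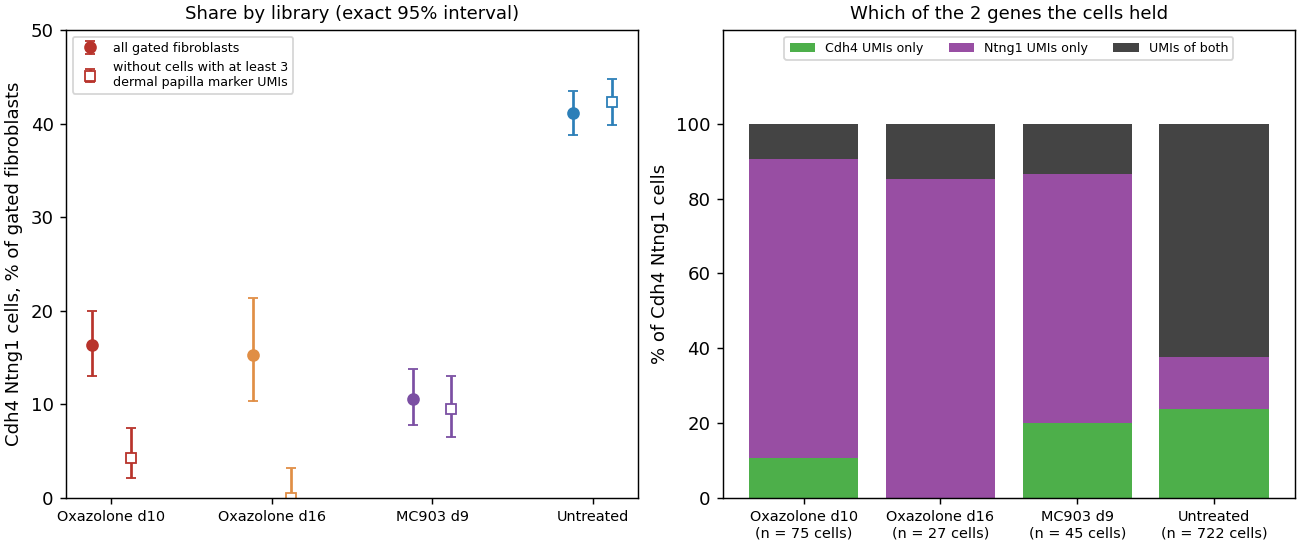
Members in each library. The left panel gives members as a percentage of gated fibroblasts with exact 95% intervals, for all gated fibroblasts and for those without dermal papilla markers, and untreated skin is highest in both. The right panel splits the members into Cdh4 only, Ntng1 only and both, as a percentage of members, with cells carrying both genes the largest class only in untreated skin.

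Cdh4 was far higher in untreated members than in treated ones, whereas Ntng1 was not. Cdh4 stood at 51.4 CPM in Oxazolone d10 members (interval 40.5 to 64.2), 11.7 CPM in Oxazolone d16 (4.69 to 24.1), 54.7 CPM in MC903 d9 (43.5 to 68.0) and 481 CPM in untreated members (468 to 493). Ntng1 stood at 288, 405, 184 and 284 CPM in the same order, so that the Oxazolone d10 and untreated intervals (262 to 317 and 274 to 293) overlap. Other gated fibroblasts had between 1.54 and 10.3 CPM of Cdh4 and between 2.96 and 11.1 CPM of Ntng1, which the limits set. The limits chose cells by the sum of the pair, so these levels are a description. A member held a median of 5, 6, 6 and 9 UMIs of the pair, and at most 29, 37, 25 and 110.

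Across the members of the 4 libraries Zfp536, which the limits did not use, had the same order as Cdh4 and not that of Ntng1. It stood at 8.01 CPM in Oxazolone d10 members, 1.67 CPM in Oxazolone d16, 23.4 CPM in MC903 d9 and 118 CPM in untreated members, against 2.51, 0.661, 4.34 and 14.2 CPM in other gated fibroblasts. A UMI of it was seen in 3 of 75, 1 of 27, 11 of 45 and 422 of 722 members (4%, 3.7%, 24.4% and 58.4%). In Oxazolone d10, 10 of its 12 UMIs came from 1 cell. Within untreated skin it reached 106 CPM in members with Cdh4 only, 43.2 CPM with Ntng1 only and 135 CPM with both genes. Members with Ntng1 only thus also lay above the 14.2 CPM of untreated other gated fibroblasts. Of the 3 markers given with these cells, Cdh4 and Ntng1 mark members through the limits. Zfp536 was seen in 58.4% of untreated members and in at most 24.4% of the members of a treated library. The name of the cells is kept as a label for untreated skin, where 62.5% of members had UMIs of both genes. Treated members are called by the limits alone.

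In untreated skin Grem1, Slc27a6, Lrrtm4, Gria4, Sv2b and Zfp536 had the highest ratios in members over other gated fibroblasts, between 3.05 and 4.39 on the log2 scale. Among 13866 genes with at least 30 UMIs in both cell groups combined, 352 were at least 2-fold higher in members (2.54%) and 1328 at least 2-fold lower (9.58%). The same cells chose the members, so nothing is read from these shares. When the sums were scaled by the median ratio, a shift of 0.20 on the log2 scale, 33.5% of the calls were higher, against 21.0% without it. The 25 leading genes are those with the highest ratios among genes with at least 100 UMIs in members and a UMI in at least 10% of them.

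Grem1 (gremlin 1, an extracellular inhibitor of bone morphogenetic proteins) had the highest ratio, with 95.9 CPM in members and 4.57 CPM in other gated fibroblasts, a log2 ratio of 4.39 (interval 4.03 to 4.78). Rspo1, an R-spondin that boosts Wnt signalling, stood at 71.1 CPM in members and 13.9 CPM in others (2.35). Grem1 was concentrated, with a UMI in 23.8% of members, while Rspo1 was seen in 54.4%. Sulf2, a secreted sulfatase that edits heparan sulfate and thereby growth factor binding, was broad, with 372 and 67.1 CPM (2.47) and a UMI in 82.4% of members. Fgfr4, a fibroblast growth factor receptor, had 33.7 and 6.46 CPM (2.38).

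Gria4, a subunit of AMPA glutamate receptors, stood at 241 CPM in members and 26.8 CPM in others (3.17, interval 3.02 to 3.33) and was seen in 59.0% of members. Sv2b, a synaptic vesicle protein, had 90.3 and 10.5 CPM (3.10), and Lrrtm4, a synaptic adhesion protein, had 48.7 and 4.29 CPM (3.51). Lrrtm4 was present in 12.2% of members, so it marked a fraction of them. Lgi1 (40 and 6.39 CPM), Fgf12 (30.9 and 5.34 CPM) and Adcy1 (24.5 and 4.15 CPM), an adenylate cyclase, were lower in level but close in ratio, between 2.53 and 2.65 on the log2 scale. The cadherin Cdh6 stood at 34.9 and 5.55 CPM (2.65).

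Serpina3n, a secreted serine protease inhibitor and acute phase gene, had 487 CPM in members and 92.7 CPM in others (2.39) and a UMI in 84.1% of members, the broadest of the leading genes named here. Slc27a6, a fatty acid transporter, had 76.0 and 6.04 CPM (3.65), Mmp27, a matrix metalloproteinase, 72.3 and 12 CPM (2.59), and Pla2g2e, a secreted phospholipase, 24.7 and 4.71 CPM (2.39). Ccl8, a chemokine for monocytes and T cells, had 107 and 20.6 CPM (2.38). Ahrr, the aryl hydrocarbon receptor repressor, had 31.6 and 3.93 CPM (3.01), and Zfp536 itself had a log2 ratio of 3.05. Other leading genes were Pik3r6, Ppp1r14a, Otulinl, Rgs22, Nat8f7 and Gpr1, at log2 ratios between 2.36 and 3.01.

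**Figure D2:**
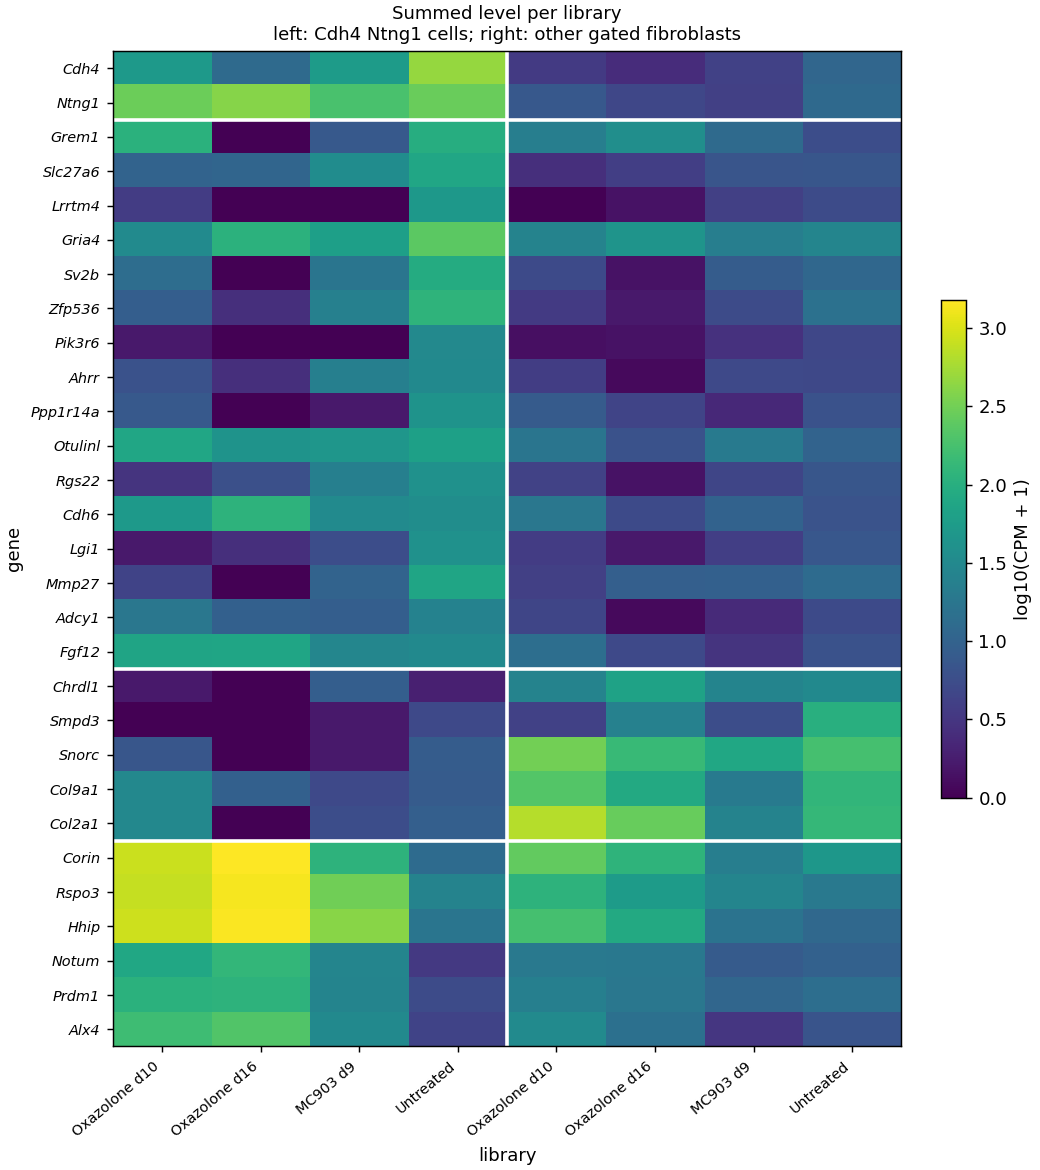
Levels of the rule genes, 16 leading genes, lower genes and dermal papilla genes in members (left columns) and other gated fibroblasts (right columns) of each library, as log10 of CPM plus 1. Most leading genes drawn are brightest in untreated members, with the exceptions of Grem1 (107 CPM) and Otulinl (75.4 CPM) in Oxazolone d10 members and of Cdh6 (113 CPM) and Fgf12 (73.4 CPM) in Oxazolone d16 members, and Corin, Rspo3 and Hhip are brightest in oxazolone members.

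Of 5 measured chondrocyte markers 0 were higher and 5 lower in untreated members (median log2 ratio -3.64). The 10 lowest ratios were those of Chrdl1, Smpd3, Snorc, Col9a1, Col2a1, Ucma, Dlx6os1, S100b, Mia and Hapln1. Col2a1, the main collagen of cartilage, had 8.10 CPM in members and 130 CPM in other gated fibroblasts (log2 ratio -4.01), and Snorc, a cartilage proteoglycan, had 7.35 and 176 CPM (-4.58). Chrdl1, a secreted BMP antagonist, had 0.918 and 31.3 CPM (-5.09), and Smpd3, a sphingomyelinase, 4.01 and 101 CPM (-4.66). The comparison cells held chondrocyte-like transcripts: at least 3 UMIs of the 6 chondrocyte markers were seen in 15 of 722 members (2.08%) and 173 of 1034 other gated fibroblasts (16.7%). Compared with the other gated fibroblasts that lacked such markers, the ratio turned to 2.97 for Col2a1, 1.56 for Col9a1, 0.51 for Snorc and 0.88 for Mia. Only the comparison cells were filtered, and Col2a1 and Col9a1 are among the markers filtered on, so the turn of these ratios follows at least in part from the filter.

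Position and layer genes differed by group. Of 14 measured Hox genes, the regional identity factors of the trunk and limbs, 7 were at least 2-fold higher in members and 0 lower, with a median log2 ratio of 0.99, against a median of -0.20 over all genes. Hoxd4 stood at 6.26 and 2.39 CPM (1.39) and Hoxd8 at 14.4 and 5.97 CPM (1.27). Of 37 craniofacial and limb patterning factors 2 were higher and 15 lower (median -0.57), with Dlx6 at 0.918 and 11.5 CPM (-3.65) and Dlx5 at 1.67 and 17.5 CPM (-3.39), both homeobox genes of jaw and ear. Of 13 reticular and lipid-handling genes 0 were higher and 8 lower (median -1.12), among them Mgp, an inhibitor of calcification (77.6 and 691 CPM, -3.15), and Dlk1 (8.01 and 38.4 CPM, -2.26). Papillary genes went both ways, with 2 higher and 2 lower of 16: Rspo1 (2.35) and Apcdd1 (195 and 70.1 CPM, 1.47) against Wif1 (63.1 and 614 CPM, -3.28) and Lef1 (-1.33). Of 12 fascia and adventitial genes 2 were higher and 3 lower, with Pi16 at 758 and 369 CPM (1.04). Neck and ear skin were pooled, so the site of members and others could not be compared.

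Most matrix and signalling lists had more lower than higher genes, as all genes did (9.58% lower and 2.54% higher). Of 23 collagen genes 0 were higher and 10 lower (median -0.79), with Col8a1 at 110 CPM in members and 1400 CPM in others (-3.67). Col1a1, a gene of the limits, was not among the 23 and was more than 2-fold higher in members by the levels given above. Of 43 matrix glycoproteins and proteoglycans 1 was higher and 8 lower, with Fmod, a collagen-binding proteoglycan of tendon and dermis, at 21.3 and 244 CPM (-3.52). Of 36 Wnt pathway genes 5 were higher and 13 lower, with Sfrp4, a secreted Wnt inhibitor, at 1.5 and 15.3 CPM (-3.35). Of 36 TGF-beta and BMP genes 4 were higher and 10 lower, with Gdf6, a BMP family ligand, at 0.25 and 4.15 CPM (-4.05). Of 14 retinoid genes 3 were higher and 5 lower, with the receptor Rarb at 47.1 and 10.7 CPM (2.13). Most of each of these lists was lower or within 2-fold.

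Most genes in the families of the rule genes lay within 2-fold. Among all genes 2.54% were higher and 9.58% lower. In cadherins, netrins and synaptic adhesion genes alike, larger shares were higher and lower than among all genes. Of 16 measured cadherins 4 were higher and 2 lower, with Cdh12 at 2.84 and 0.211 CPM (3.75) and Cdh18 at 8.76 and 1.05 CPM (3.06). Of 12 netrins and netrin receptors 1 was higher and 3 lower: the receptor Dcc stood at 22.4 and 6.25 CPM (1.84) and Unc5c at 19.3 and 89.5 CPM (-2.21). Of 29 synaptic adhesion genes 3 were higher and 4 lower, with Lrrtm3 at 12.7 and 2.60 CPM (2.29) and Adgrl3 at 37.5 and 123 CPM (-1.71). Of 22 chemokines and cytokines 1 was higher, Ccl8, and 7 lower, with Il33, an alarmin, at 2.17 and 15.9 CPM (-2.87). Of 22 dissociation stress genes 0 were higher and 9 lower (median -0.77), with Egr2 at 11.9 and 42.2 CPM (-1.83).

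Markers of other cell types also differed between untreated members and other gated fibroblasts. Among all genes 2.54% were higher in members and 9.58% lower. Of 6 melanocyte markers 4 were higher in members, with a summed level of 675 and 459 CPM. Of 6 mural cell markers 4 were higher, with 179 and 79.9 CPM, among them Rgs5 at 57.8 and 16.5 CPM. In members Rgs5 was seen in 27 of 722 cells. Of 7 measured Schwann cell markers 3 were higher and 1 lower (133 and 96.9 CPM). Of 3 measured macrophage markers 2 were higher and 0 lower, and the whole list summed to 16.8 and 8.36 CPM. Keratinocyte markers summed to 392 and 442 CPM, T cell markers to 3.84 and 5.34 CPM, and skeletal muscle markers to 3.76 and 5.06 CPM. Matn1, a cartilage gene, was at 0 in both. The part of these markers in the ratios was not tested.

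Across gated fibroblasts of untreated skin, cells with more UMIs of the pair had more of the leading genes. Cells with 0, 1 to 2, 3 to 5, 6 to 11 and 12 or more UMIs of the pair numbered 808, 226, 199, 239 and 284, and 23 of the 25 leading genes were higher in each bin than in the bin before. Zfp536 stood at 8.31, 33.9, 47.1, 106 and 164 CPM, Sulf2 at 53.1, 114, 210, 355 and 471 CPM, and Serpina3n at 68.7, 173, 321, 481 and 583 CPM. Grem1 stood at 3.56, 7.93, 20.1, 51.6 and 168 CPM. Cells below the limit thus already lay above cells with no UMI of the pair for these genes. Depth moved with the bins, with medians of 11904, 13144, 13212, 14449 and 17123 UMIs, though CPM is scaled to the total. At the limit itself, the 77 cells with exactly 3 UMIs and the 78 cells with exactly 2 UMIs had 33.0 and 42.9 CPM of Zfp536, 18.7 and 16.5 CPM of Grem1, 89.2 and 71.8 CPM of Gria4, 188 and 163 CPM of Sulf2 and 356 and 249 CPM of Serpina3n. The bins were made from the UMIs that chose the members, and the genes were picked for their level in members, so these values are a description.

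**Figure D3:**
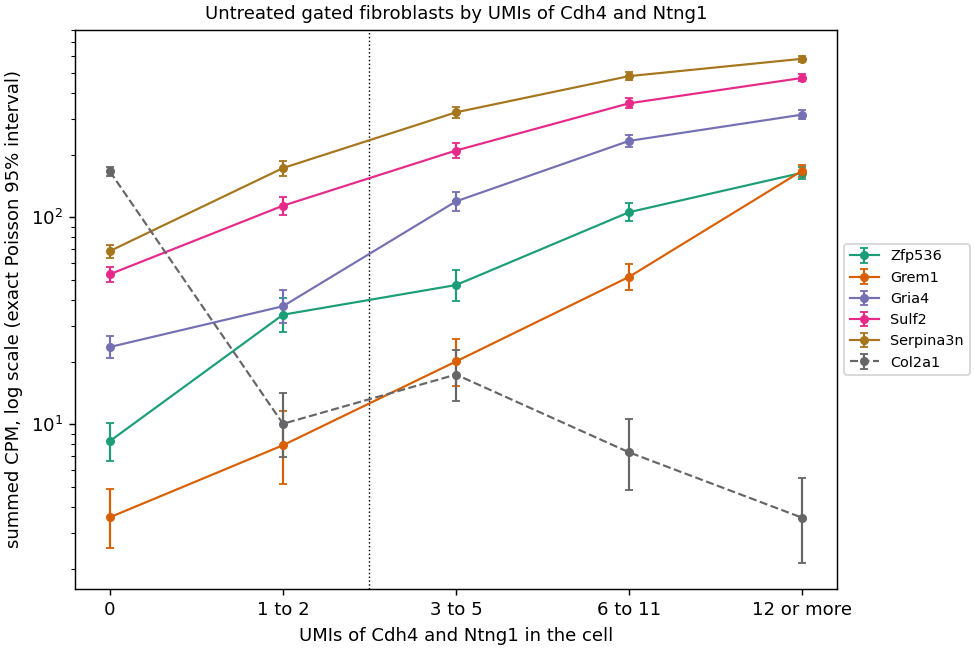
Levels in CPM of Zfp536, Grem1, Gria4, Sulf2, Serpina3n and Col2a1 in gated fibroblasts of untreated skin, by the UMIs of Cdh4 and Ntng1 in a cell (0, 1 to 2, 3 to 5, 6 to 11, 12 or more). The dotted line marks the limit of 3 UMIs, and 5 of the 6 genes are higher in each bin than in the bin before, on both sides of it.

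By genes that the limits did not use, members on average had more members near them in expression space than other gated fibroblasts did. With the genes of the limits left out of the principal components, 74.5% of the 15 nearest gated fibroblasts of an untreated member were members on average, against 20.4% for other gated fibroblasts and 41.1% of the library. In Oxazolone d10 the shares were 36.1% and 9.65%, with 16.3% in the library. In MC903 d9 they were 20% and 8.39%, with 10.5% in the library, and the medians were 13.3% and 6.67%. Oxazolone d16 had too few members for this measure. The mean share was thus above that of other gated fibroblasts in these libraries, though most neighbours of treated members were not members.

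In the oxazolone libraries most members held dermal papilla transcripts, and in the MC903 and untreated libraries most did not. At least 3 UMIs of 6 dermal papilla markers (Corin, Rspo3, Hhip, Notum, Prdm1 and Alx4) were held by 64 of 75 members in Oxazolone d10 (85.3%), 27 of 27 in Oxazolone d16, 13 of 45 in MC903 d9 (28.9%) and 50 of 722 in untreated skin (6.93%). Among other gated fibroblasts the shares were 35.1%, 24.7%, 19.8% and 11.5%. Corin, a protease of the dermal papilla that acts on coat colour, stood at 849, 1516, 112 and 11.9 CPM in members and 260, 117, 21.8 and 47.8 CPM in other gated fibroblasts. Members thus had more Corin than other gated fibroblasts in the treated libraries and less in untreated skin. Hhip, a Hedgehog inhibitor, stood at 865, 1438, 413 and 16 CPM in members, and Rspo3, an R-spondin, at 800, 1378, 308 and 25.6 CPM. Sox2, a stem cell factor of some papillae, stood at 62.7, 73.4, 36.7 and 0.751 CPM.

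Without cells holding dermal papilla markers, few members were left in the oxazolone libraries. Among gated fibroblasts lacking those markers, 11 of 261 were members in Oxazolone d10 (4.21%), 0 of 113 in Oxazolone d16 (upper limit 3.21%), 32 of 339 in MC903 d9 (9.44%) and 672 of 1587 in untreated skin (42.3%). Whether inside the gate or not, 237, 82, 92 and 87 Pdgfra cells had at least 10 UMIs of the 6 markers, and Ntng1 was seen in 57.8%, 56.1%, 31.5% and 23.0% of them. Cdh4 stood at 8.14, 4.44, 9.09 and 49.8 CPM in these cells, and Ntng1 at 159, 140, 120 and 54.7 CPM. In these cells Ntng1 was higher and Cdh4 lower in the treated libraries than in untreated skin.

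Per 10000 UMIs of a cell, the summed 25 leading genes had a median of 6.67 in Oxazolone d10 members, 7.83 in Oxazolone d16, 11.7 in MC903 d9 and 23.6 in untreated members, against 4.33, 8.71, 7.19 and 1.60 in other gated fibroblasts. The 6 dermal papilla markers had a median of 33.6, 48.7, 0 and 0 in members, against 0.383, 0, 0 and 0 in other gated fibroblasts. The leading genes were chosen in untreated members, so their high value there is a description. In Oxazolone d10 and MC903 d9 the median of members was above that of other gated fibroblasts, and in Oxazolone d16 it was below.

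**Figure D4:**
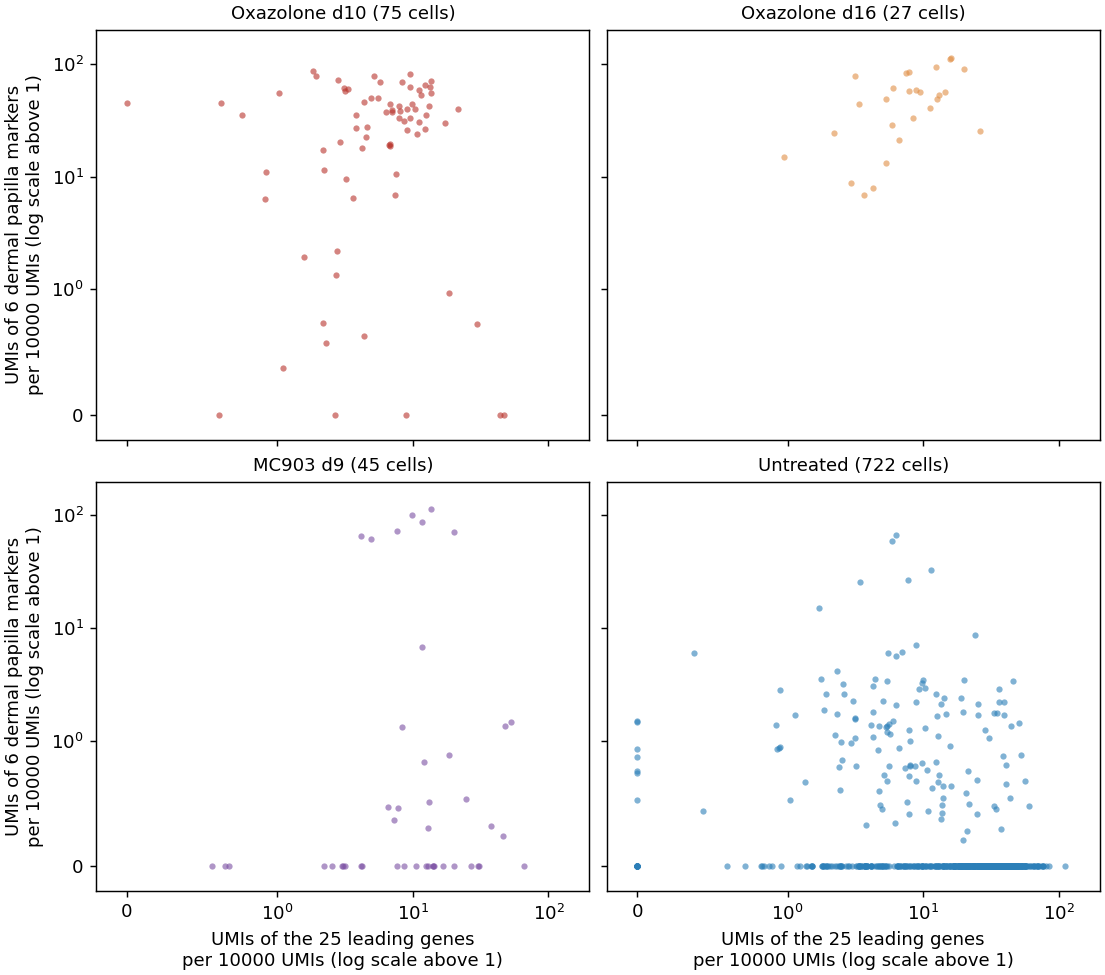
Each point is a member of 1 library, with UMIs of the 6 dermal papilla markers and of the 25 leading genes per 10000 UMIs of the cell on symmetric log axes. Oxazolone members lie mostly at high dermal papilla values, and untreated members mostly at 0 dermal papilla UMIs with high values of the leading genes.

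The leading genes were checked against other gated fibroblasts within each treated library. In Oxazolone d10, 8 of 18 measured leading genes were at least 2-fold higher in members and 1 lower (median 0.73), where 8.68% of 12499 genes were higher and 8.26% lower. In MC903 d9, 12 of 22 were higher and 1 lower (median 1.12), where 4.38% of 12224 genes were higher and 6.21% lower. Most of the 10 lower genes of untreated members were also lower in these libraries, 8 of 9 measured in Oxazolone d10 and 9 of 10 in MC903 d9. Here too the comparison cells held more chondrocyte markers. At least 3 UMIs of them were in 33.0% of others and 9.33% of members in Oxazolone d10. In MC903 d9 the shares were 13.8% and 8.89%, and the part of these cells was not tested. The highest ratios of these libraries, chosen after their values were seen, belonged to other genes. In Oxazolone d10 these were led by Galnt13 (77.4 and 1.55 CPM, 5.64), a glycosyltransferase, and in MC903 d9 by Dnajc6 (44.7 and 0.924 CPM, 5.60), a clathrin uncoating factor. Of the genes higher in members, 96 were shared by Oxazolone d10 and untreated skin, 9.75% of the Oxazolone d10 list and 43.2% of the untreated list. Of the 12301 genes measured in both, 985 were higher in Oxazolone d10 and 222 (1.80%) in untreated skin. MC903 d9 shared 63, 12.3% of its list and 30% of the untreated list. Of the 12035 genes measured in both, 511 were higher in MC903 d9 and 210 (1.74%) in untreated skin.

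Single cells carried some levels in the small treated groups. Grem1 stood at 107 CPM in Oxazolone d10 members, 0 in Oxazolone d16, 6.68 CPM in MC903 d9 and 95.9 CPM in untreated members. In Oxazolone d10, 132 of its 161 UMIs came from 1 cell and it was seen in 4 of 75 members, against 172 of 722 in untreated skin. Gria4 stood at 32.7, 110, 62.1 and 241 CPM, and in Oxazolone d16, 45 of its 66 UMIs came from 1 cell. Sulf2 (60.7, 15, 114 and 372 CPM) was highest in untreated members, whereas Rspo1 (214, 339, 51.4 and 71.1 CPM) was highest after oxazolone. Serpina3n stood at 56.0, 18.3, 1040.1 and 487 CPM in members and at 290, 918, 929 and 92.7 CPM in other gated fibroblasts. Serpina3n was thus lower in members than in others after oxazolone and higher in untreated skin.

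Oxazolone d10 members were set against untreated members. Of 12403 genes, 2033 were at least 2-fold higher (16.4%) and 1092 at least 2-fold lower (8.8%). With scaling by the median ratio, a shift of 0.25, 52.6% of calls were higher, against 65.1% without it. Of 17 dermal papilla genes 16 were higher and 0 lower (median log2 ratio 4.74), among them Sox2 (6.38), Rspo2 (540 and 6.84 CPM, 6.30), Corin (6.15) and Rspo4 (173 and 3.17 CPM, 5.77). Of 11 fascia and adventitial genes 1 was higher and 9 lower (median -2.42), with Pi16 at 8.67 and 758 CPM (-6.45) and Cd34, a sialomucin of adventitial fibroblasts, at 50.7 and 716 CPM (-3.82). These members also carried the follicle genes Lef1, a Wnt effector (576 and 9.68 CPM, 5.90), and Wif1, a Wnt inhibitor (1767 and 63.1 CPM, 4.81), and the netrin receptors Dcc (1686 and 22.4 CPM, 6.24) and Unc5c (671 and 19.3 CPM, 5.12). Of 10 fibroblast markers 0 were higher and 7 lower (median -2.40), of 6 mural markers 1 was higher and 5 lower, and of 3 leukocyte markers 3 were higher. Of 16 ephrins and Eph receptors 11 were higher and 0 lower, and of 15 cadherins 10 were higher and 1 lower. Of 14 Hox genes 10 were higher and 0 lower (median 1.63), and of 19 chemokines and cytokines 3 were higher and 10 lower (median -1.22), with Ccl11 at 15.3 and 215 CPM (-3.81).

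The genes with the largest ratios in that comparison were in part single-cell or other-cell signals. Sostdc1, a BMP and Wnt antagonist, stood at 1276 CPM in Oxazolone d10 members and 8.26 CPM in untreated members (7.27) and was seen in 48 of 75 and 33 of 722 members. Slc26a7, an anion exchanger, was at 141 and 1.00 CPM (7.13) in 29 and 8 members. Sst (somatostatin) was at least 1079-fold higher, with 405 UMIs in Oxazolone d10 against 0 and a floor of 3 UMIs in the untreated sum, but 404 of the 405 came from 1 cell. Oca2, a melanocyte gene, had 239 of its 244 UMIs in 1 cell. The 6 melanocyte markers summed to 687 and 675 CPM, but 5 of them were at least 2-fold higher and 1 lower (median log2 ratio 2.94). That median turned negative without doublet-scored cells. S100a9, a neutrophil gene, stood at 70.7 and 0.0835 CPM with 1 UMI in untreated members (9.73, interval 7.22 to 15.04), and neutrophil markers summed to 147 and 0.918 CPM in members and 124 and 0.773 CPM in others. The lowest ratios beside Pi16 were those of Ppp2r2c (-6.08, interval -11.4 to -3.60), Akr1c18, Lgi1, Fam180a (2.67 and 155 CPM, -5.86), Pik3r6, Krt15 and Tmeff2. Lgi1 and Pik3r6 are leading genes of untreated members and had 1 UMI each in Oxazolone d10 members.

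MC903 d9 members were set against untreated members as well. Of 12197 genes, 1409 were at least 2-fold higher (11.6%) and 1217 lower (9.98%), with 41.4% of calls higher after scaling by the median ratio, a shift of 0.16, and 53.7% without it. Of 17 dermal papilla genes 15 were higher and 0 lower (median 2.95). Without the cells holding dermal papilla markers 1 of 7 measured was higher and 0 lower (median -0.41). Those cells were removed for their UMIs of dermal papilla markers, so this change follows at least in part from the filter. Of 11 fascia and adventitial genes 1 was higher and 6 lower (median -1.01), with Cd55, a complement inhibitor, at 25.4 and 194 CPM (-2.94). Igfbp3 stood at 1430.0 and 154 CPM (3.22) and Igfbp5 at 260 and 1940 CPM (-2.90), both carriers of insulin-like growth factors. Kcne4, a potassium channel subunit, was at 94.8 and 1.75 CPM (5.76) in 17 and 15 members. Tnn, a tenascin, had its 269 UMIs in 1 cell.

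Most of the lowest genes in MC903 d9 members were epidermal. Krt15 and Krt14, keratins of the basal epidermis, had 0 UMIs there and 1373 and 1275 in untreated members, at least 57.2-fold and 53.1-fold lower against a floor of 3 UMIs. Ly6d, Col17a1, Sfn and Lgals7 are likewise epidermal genes and had 1, 1, 1 and 5 UMIs in MC903 d9 members, against 392, 375, 300 and 1435 in untreated members. Keratinocyte markers summed to 50.7 and 392 CPM in members of MC903 d9 and untreated skin and to 76.4 and 442 CPM in other gated fibroblasts, so they were lower in both kinds of cells. Their part in these ratios was not tested. Of the leading genes of untreated members, Ppp1r14a had 1 and 499 UMIs (-5.96, interval -11.3 to -3.48), Ccl8 stood at 3.34 and 107 CPM (-5.01), and Lrrtm4 had 0 and 583 UMIs. Serpina3n was higher, at 1040.1 and 487 CPM (1.09).

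Members without dermal papilla markers could be compared between MC903 d9 and untreated skin, with 32 and 672 cells. Of 11749 genes, 1262 were at least 2-fold higher (10.7%) and 1392 lower (11.8%). Cdh4 stood at 71.8 and 510 CPM, Ntng1 at 153 and 294 CPM, and Zfp536 at 26.8 and 123 CPM in these cells. Grem1 (2.87 and 95.2 CPM), Gria4 (71.8 and 261 CPM) and Sulf2 (135 and 394 CPM) were lower as well, and Serpina3n (1106 and 520 CPM) was higher. Cdh4, Zfp536, Grem1, Gria4 and Sulf2 were thus lower without the dermal papilla cells as well. Of 12 reticular and lipid-handling genes 6 were higher and 1 lower (median 0.82), with Mgp at 1338 and 82.4 CPM (4.02). Of 10 Hox genes 1 was higher and 5 lower (median -1). Col15a1, a basement membrane collagen, stood at 12.4 and 202 CPM (-4.02) and C1qtnf3 at 7.66 and 89.0 CPM (-3.54).

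Most of the leading genes were lower after treatment in the fibroblasts as a whole, before any exclusion. These were 649, 345, 957 and 1891 cells. Cdh4 stood at 6.59, 1.75, 8.20 and 212 CPM, Ntng1 at 29.4, 21.2, 21.4 and 132 CPM, and Zfp536 at 3.00, 1.51, 7.19 and 57.8 CPM. Against untreated skin, 17 of the 25 leading genes were at least 2-fold lower in Oxazolone d10, 18 in Oxazolone d16 and 20 in MC903 d9, where 6.18%, 13.4% and 11.6% of all genes were. Higher were 1, 2 and 1 of the 25, where 9.31%, 7.36% and 7.75% of all genes were. Serpina3n was at 2.36 on the log2 scale in Oxazolone d16 and 2.07 in MC903 d9, and Ccl8 at 1.43 in Oxazolone d16. Grem1 stood at 57.3, 49.3, 9.80 and 43.0 CPM, so it was lower in MC903 d9 (log2 ratio -2.13) and within 2-fold in the oxazolone libraries (0.41 and 0.20). The leading genes were chosen in untreated members, which make up much of the untreated sum, so these counts describe and do not test.

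Other cells of the skin carried the rule genes as well. In untreated skin Ntng1 stood at 174 CPM in 270 mural cells, 22.2 CPM in 224 melanocytes, 23.7 CPM in 123 Schwann cells and 2.42 CPM in 1856 leukocytes. Cdh4 stood at 46.7, 38.0, 18.9 and 4.28 CPM in the same cells. Leukocytes should lack both genes, and a UMI was seen in 1.83% of them for Cdh4 and 1.02% for Ntng1, at a median of 7599 UMIs per cell. In untreated members the shares were 86.1% and 76.3%, at a median of 15139.5 UMIs. The limits required UMIs of the pair in members, so their shares follow from the limits. Zfp536 was high in Schwann cells, with 411 CPM in Oxazolone d10, 559 CPM in Oxazolone d16, 366 CPM in MC903 d9 and 401 CPM in untreated skin. It was thus no marker of these fibroblasts alone.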

How the data were processed

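Droplet single-cell RNA sequencing was done on 4 libraries, 1 per group. The authors deposited UMI counts of 32285 features per barcode. The submitters' processing notes name Cell Ranger 8.0, while per the file headers version 7.2.0 wrote the untreated and Oxazolone d10 matrices and 8.0.0 the MC903 d9 and Oxazolone d16 matrices. The difference in version splits the treated libraries and its part was not tested.

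Of 28847 barcodes, 27755 passed the limits of 300 detected genes and 15% of UMIs from mitochondrial genes. Counts were summed over cells, scaled to CPM and compared as ratios among genes with at least 30 UMIs, called at 2-fold, with Clopper-Pearson, Poisson and conditional binomial intervals. They cover counting error only. Libraries with fewer than 30 members (Oxazolone d16) gave values of members and no ratio of them, while ratios of all fibroblasts were taken in every treated library. A gene at 0 was set to a floor of 3 UMIs over the group. Doublets were scored with Scrublet in scanpy 1.11.5 and kept, with their removal as an alternative. Neighbours used 2000 variable genes and 30 principal components (scikit-learn 1.9.0), and arithmetic used Python 3.11.15, numpy 2.4.6, scipy 1.17.1 and pandas 2.3.3. The summing and calling steps were tested on simulated data.

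Named were the rule genes, the 25 highest and 10 lowest ratios in untreated skin (at least 100 UMIs and a UMI in 10% of cells of the higher group), the 8 highest and 8 lowest of each treated comparison (at least 50 UMIs), and the largest ratios of each list. Some genes that this rule names are not reported here. Members and lists were chosen with earlier results of these data known.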

Additional observations from a re-analysis of the deposited data

Results flagged for a closer look

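Some genes differed in opposite directions between members and other gated fibroblasts, depending on the library. These differences between libraries were not tested. In Oxazolone d10 the log2 ratio of members over other gated fibroblasts was -2.37 for Serpina3n, 1.71 for Corin, 2.05 for Notum and 2.23 for Prdm1. In MC903 d9 it was -2.18 for Ccl8, 2.36 for Corin, 1.87 for Notum and 1.34 for Prdm1. In untreated skin it was 2.39 for Serpina3n, 2.38 for Ccl8, -2.00 for Corin, -1.92 for Notum and -1.61 for Prdm1. Cells with dermal papilla markers were 85.3% of members in Oxazolone d10, 28.9% in MC903 d9 and 6.93% in untreated skin.

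At least 3 UMIs of Cdh4 and Ntng1 were also seen in barcodes outside the fibroblast gate, which the comparisons did not use. There were 202 such barcodes in Oxazolone d10, 58 in Oxazolone d16, 149 in MC903 d9 and 264 in untreated skin. In them Cdh4 stood at 107, 84.5, 107 and 294 CPM and Ntng1 at 191, 154, 158 and 272 CPM.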

How the results depend on the processing

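No paired analysis was possible because each group had 1 library. The share of members in Oxazolone d10, Oxazolone d16, MC903 d9 and untreated skin changed with the limit and with which cells counted. At 2 UMIs it was 20.9% in Oxazolone d10, 15.2% in MC903 d9 and 45.6% in untreated skin. At 5 UMIs it was 10.9%, 7.01% and 33.2% in those 3. With a UMI of each gene it was 1.52%, 2.82%, 2.10% and 26.3%. Without the exclusions it was 12.2% in Oxazolone d10 and 8.41% in Oxazolone d16. Thinned to 10000 UMIs it was 11.1%, 9.03% and 4.69% in the treated libraries, and with 1 UMI after thinning to 5000 it was 44.7% in untreated skin. Without cells holding dermal papilla markers, an alternative added after seeing the data, it was 4.21% in Oxazolone d10 and 0% in Oxazolone d16.

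Gene counts followed the minimum of UMIs per gene. Members over other gated fibroblasts in Oxazolone d10 gave 1085 higher genes, and 559 at 100 UMIs, 6299 with no minimum and 677 after thinning, while 1032 lower genes became 621 at 100 UMIs. In MC903 d9, 535 higher genes became 229, 6577 and 352, and 321 without dermal papilla cells, and 759 lower genes became 320 at 100 UMIs. In untreated skin, 352 higher genes became 225 and 2093, and 1328 lower genes became 741 and 3476, and 810 against cells without chondrocyte markers. Oxazolone d10 members over untreated members gave 2033 higher genes, 1077 at 100 UMIs and 8408 with no minimum. MC903 d9 members gave 1409, 829 and 7430, and 1217 lower genes became 734 at 100 UMIs.

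A list median turned direction in 18 pairs of a list and an alternative, and 4 named genes turned. Against comparison cells filtered to lack chondrocyte markers, which by construction raises these genes in the ratio, the log2 ratio was 0.51 for Snorc, 1.56 for Col9a1, 2.97 for Col2a1 and 0.88 for Mia in untreated skin, and the chondrocyte list 2.25, or 3.83 in Oxazolone d10. At 5 UMIs the blood endothelial list was -0.91 in Oxazolone d10 and the dermal sheath list -1.46 in MC903 d9, against 2.40 and 1.21 in the main setting. Without dermal papilla cells the MC903 d9 lists were -0.36 (dermal papilla) and -1.72 (dermal sheath), and with no minimum 0.24 (keratinocyte) and 0.050 (neutrophil). In the main setting these lists stood at 2.52, 1.21, -1.73 and -1.77 in that order. Oxazolone d10 members over untreated members gave -0.36 (cell cycle) and -0.25 (melanocyte) without doublet-scored cells, against 1.64 and 2.94 in the main setting. MC903 d9 members over untreated members gave -0.41 (dermal papilla), -2.56 (dermal sheath), -1.67 (contractile) and -0.0051 (Schwann) without dermal papilla cells. The last 3 of these lists gave -0.94, -0.18 and -0.082 at 5 UMIs, and the mural list 0.12 after thinning. In the main setting these lists stood at 2.95, 1.47, 1.14, 2.08 and -2.41 (mural). Where dermal papilla cells were removed, the values of the dermal papilla list follow at least in part from that filter. The cause was not tested. Neighbour shares kept their direction in all 6 alternatives. Small member numbers in the treated libraries limit every value there.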
